A study of Rattus norvegicus with 9 samples.

Results

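Genes of the neuromuscular junction were followed in tibialis anterior muscle (TIB) of rats during prolonged fasting. They code for the 5 subunits of the muscle acetylcholine receptor (Chrna1, Chrnb1, Chrnd, Chrne and Chrng), for the parts of the agrin pathway that gather the receptor under the nerve ending (Lrp4, Musk, Dok7 and Rapsn), and for acetylcholinesterase (Ache). The genes, and the lists set beside them below, were chosen by name with earlier results of these data known. Their counts beside the shares of all genes are therefore a description. All 10 were measured, each by 1 probe set that the platform annotation gives to that gene alone. There were 14506 genes with such a probe set. All animals were male Sprague Dawley rats kept in individual cages with free access to water. The groups were fed rats (Fed), with a full stomach at sampling, rats fasted until phase 2 (P2), when body protein is spared, and rats fasted until phase 3 (P3), when body protein loss accelerates. The phases were told apart by daily weighing, and rats of the P3 group were sampled early in that phase. RNA from the whole muscle of 3 rats per group was studied, each rat on its own Affymetrix microarray (Rat Gene 1.0 ST), and the deposited values are log2 intensities. Nerve endings were not dissected out. In whole muscle, fewer cells or nuclei of a kind and less RNA per nucleus cannot be told apart.

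At the neuromuscular junction, acetylcholine released by a motor neuron opens a receptor channel of 5 subunits in the membrane of the muscle fibre. In adult muscle the channel holds the epsilon subunit (Chrne), whereas fetal and denervated rodent muscle also makes the gamma subunit (Chrng). Agrin from the nerve binds LRP4, which activates the kinase MuSK; with the adaptor DOK7, MuSK drives rapsyn to anchor receptors in clusters, and acetylcholinesterase in the cleft breaks the transmitter down. In innervated fibres these genes are read mainly by the few nuclei under the synapse. When the nerve of a rodent muscle is cut, nuclei along the whole fibre turn on Chrna1, Chrnb1, Chrnd, Chrng and Musk under the control of myogenin, whereas Ache falls.

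Array medians lay between 5.80 and 5.90, and Pearson's r across the 29215 probe sets was 0.987 to 0.994 within a group and 0.957 to 0.987 across groups. All 10 fibre markers, such as Acta1, Ckm and Myh4, were measured. Their mean log2 intensity was 13.28 to 13.32 in fed, 13.14 to 13.17 in P2 and 12.86 to 12.94 in P3 rats. In P3 versus Fed, the log2 fold change was -1.87 for Pvalb, -0.81 for Mb and -0.58 for Myh2, the last without a call (adjusted p = 0.061 with limma). It was -0.11 for Acta1, -0.11 for Ckm and 0.01 for Myh4, so the deposited values of the markers did not fall alike. Fed means were 13.97 for Acta1, 13.57 for Ckm and 13.63 for Myh4. Whether signals this bright could show a decrease was not tested. The value after ± is the standard error of a log2 fold change, and a gene counts as changed at an adjusted p under 0.05 with limma and Benjamini-Hochberg adjustment over all probe sets. Each array came from a different rat, so the errors are between rats.

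In P3 versus fed rats, 6 of the 10 genes fell, 1 rose and 3 did not pass the test. The decreases were in Ache, Dok7, Chrne, Rapsn, Chrna1 and Chrnb1, the increase was in Lrp4, and Chrnd, Chrng and Musk did not pass. The same test called 13.4% of all probe sets lower and 15.8% higher in P3 versus Fed, or 17.1% and 18.2% with 1 probe set per gene. P3 and Fed arrays did not overlap for 7 of the 10 genes, beside 42.4% of all probe sets and 7020 of 14506 genes. The median log2 fold change was -1.03 over the 10 genes and 0.00 over all probe sets. In P2 versus Fed, Ache, Musk and Chrnb1 fell, and none of the 10 passed as higher in limma, also at an unadjusted p under 0.05, nor in an ANOVA with Tukey's test. Unless a p under 0.001 is stated, the ANOVA p was adjusted by Benjamini-Hochberg, and both it and Tukey's p had to be under 0.05. The test called 4.15% of all probe sets lower and 5.13% higher in P2, or 5.57% and 7.07% with 1 probe set per gene. P2 and Fed arrays did not overlap for 3 of the 10 genes, beside 24.2% of all probe sets and 4208 of 14506 genes. When P3 was set against P2, 6 of the 10 were lower and 1 was higher, beside 7.52% of all probe sets lower and 8.50% higher, or 10.4% and 11.4% with 1 probe set per gene. Arrays of these phases did not overlap for 7 of the 10 genes, beside 27.4% of all probe sets and 4963 of 14506 genes. The values on each array are shown in the plot of the 10 genes by group.

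**Figure D1:**
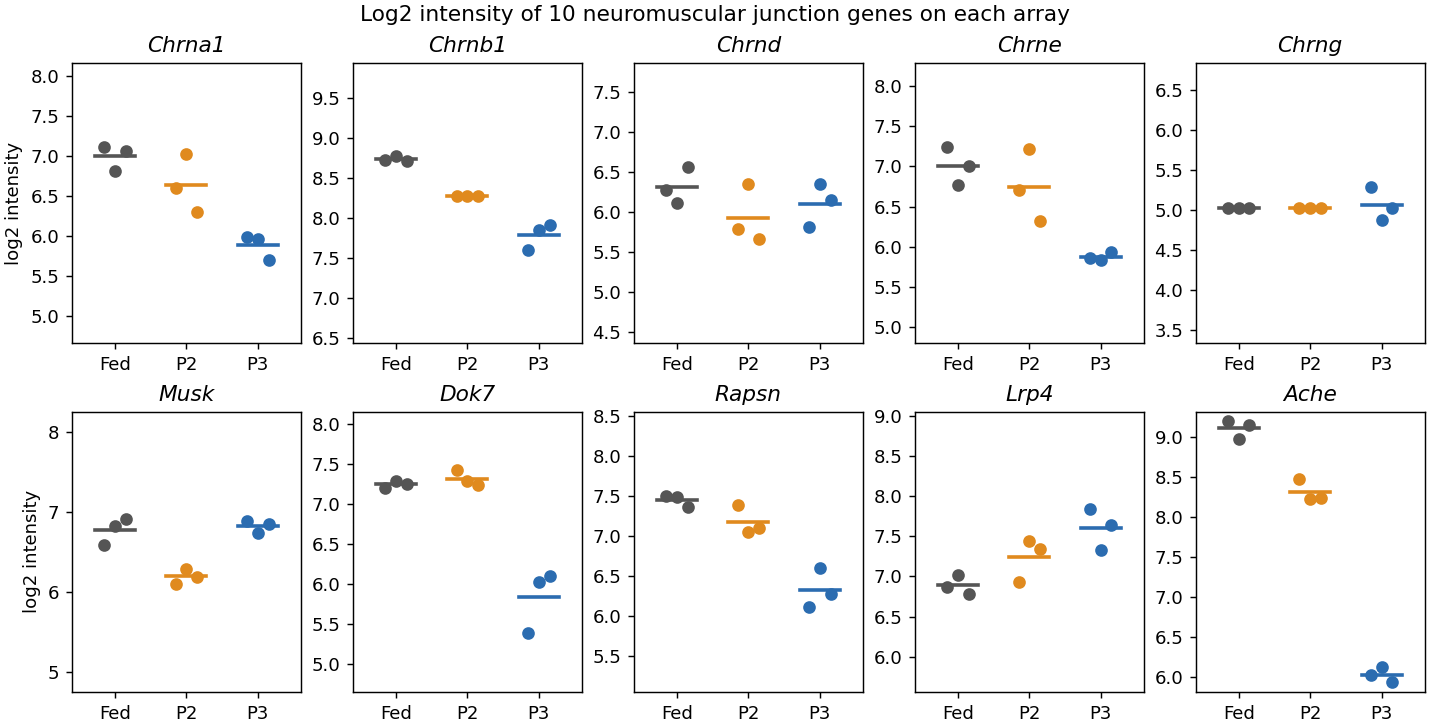
Log2 intensity (y axis) of the 10 genes in TIB of fed, P2 and P3 rats (x axis), with 1 point per array and a line at the mean of 3 rats; every panel spans an equally wide log2 range. Ache lies near 6.02 in P3 rats and near 9.10 in fed rats, and Musk is low in P2 rats.

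Promoter sequence of 4 of the genes is shown first, because regulation of receptor genes has been traced to short motifs near their start. E-boxes (CANNTG, which equals its own reverse complement in form) are bound by myogenic factors such as MyoD and myogenin, and the N-box (CCGGAA or its reverse complement TTCCGG), known from the rodent Chrne and Chrnd genes, is bound by GABP. The sequences are from RefSeq on build GRCr8, 5′ to 3′ along the gene, and cover the 250 bases before its start, with E-boxes and N-boxes in capitals. Chrne and Chrna1 fell in P3, and Chrnd and Musk did not pass the test there.
Chrne, chr10:55834155-55834404, minus strand: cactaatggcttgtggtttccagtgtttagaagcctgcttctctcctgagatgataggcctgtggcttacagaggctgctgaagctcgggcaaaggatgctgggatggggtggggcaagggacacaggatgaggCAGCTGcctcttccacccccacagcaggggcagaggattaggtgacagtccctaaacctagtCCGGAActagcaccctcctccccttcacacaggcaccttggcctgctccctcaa
Chrna1, chr3:78877354-78877603, minus strand: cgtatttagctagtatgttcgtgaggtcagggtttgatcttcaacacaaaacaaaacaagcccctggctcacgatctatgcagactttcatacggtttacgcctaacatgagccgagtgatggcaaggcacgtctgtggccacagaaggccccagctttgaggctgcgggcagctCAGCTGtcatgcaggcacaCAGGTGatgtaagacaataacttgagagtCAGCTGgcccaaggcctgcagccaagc
Chrnd, chr9:95310066-95310315, plus strand: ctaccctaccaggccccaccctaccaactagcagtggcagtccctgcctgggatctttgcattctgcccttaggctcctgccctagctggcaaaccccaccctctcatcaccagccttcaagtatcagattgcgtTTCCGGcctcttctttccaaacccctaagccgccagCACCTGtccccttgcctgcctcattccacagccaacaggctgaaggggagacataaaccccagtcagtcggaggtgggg
Musk, chr5:77853486-77853735, plus strand: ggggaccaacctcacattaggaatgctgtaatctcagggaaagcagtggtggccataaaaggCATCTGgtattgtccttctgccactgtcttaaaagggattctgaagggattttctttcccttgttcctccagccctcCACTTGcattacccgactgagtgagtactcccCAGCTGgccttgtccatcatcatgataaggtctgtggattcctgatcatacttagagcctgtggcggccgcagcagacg
Of the 10 genes, 8 had an entry in the RefSeq promoter table, and the promoters of Rapsn and Lrp4 were not analysed here. An N-box was found on either strand in 2 of these 8, Chrne and Chrnd, and in 12.6% of the 33469 promoter windows of the table. The one in Chrne begins 54 bases before the start of the gene and the one in Chrnd 115 bases before it. An E-box of any form was found in all 8 and in 65.5% of all windows. The form CAGCTG, which is 1 of the forms counted in CANNTG, was found in 5 of the 8 (Chrna1, Chrnb1, Chrne, Chrng and Musk) and in 12.0% of all windows. A match describes these letters only and is not a measured binding site.

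Among the receptor subunits, the alpha and epsilon subunits fell in P3. Chrna1 (probe set 10846210), which codes the subunit that binds acetylcholine, had log2 intensities of 7.11, 6.81 and 7.05 in fed, 6.59, 7.02 and 6.29 in P2 and 5.98, 5.96 and 5.70 in P3 rats. All P3 arrays lay below all fed and P2 arrays, and the P2 and fed arrays overlapped. The log2 fold change was -1.11 ± 0.18 in P3 versus Fed (adjusted p = 0.00119), which is 46.3% of the fed level. In P2 it was -0.36 ± 0.18 (adjusted p = 0.280), and in P3 versus P2 it was -0.75 ± 0.18 (adjusted p = 0.0176). Chrne (probe set 10744472), the adult subunit, had 7.25, 6.76 and 7.00 in fed, 6.71, 7.22 and 6.33 in P2 and 5.86, 5.83 and 5.93 in P3 rats. Again every P3 array lay below the other 6 arrays. The P3 mean was 5.88 for Chrna1 and 5.88 for Chrne, near the array medians of 5.80 to 5.90. It was not known whether these genes were above background in P3, so percentages of the fed level hold for the deposited values only. Chrne fell by 1.13 ± 0.21 in P3 (adjusted p = 0.00274), to 45.7% of the fed level, and its P2 value was -0.26 ± 0.21 (adjusted p = 0.543). The step between the phases, -0.87 ± 0.21 (adjusted p = 0.0191), lost its call when any 1 of the 3 P3 arrays was left out (adjusted p = 0.0532 to 0.0633), and that of Chrna1 lost it without P3 replicate 3 (adjusted p = 0.0709) and when the fit held only the groups compared (adjusted p = 0.0540).

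The beta subunit declined in both phases. Chrnb1 (probe set 10744215), the subunit that contacts rapsyn, had log2 intensities of 8.72, 8.77 and 8.70 in fed, 8.27, 8.27 and 8.27 in P2 and 7.59, 7.84 and 7.91 in P3 rats, so that the 3 groups did not overlap. Versus Fed, Chrnb1 fell by 0.46 ± 0.09 in P2 (adjusted p = 0.0118). The P3 versus Fed value was -0.95 ± 0.09 (adjusted p = 4.1e-05). Against P2, the P3 value was -0.49 ± 0.09 (adjusted p = 0.0044). The P3 level was 51.8% of the fed level.

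The delta and gamma subunits did not pass the test in either phase. Chrnd (probe set 10924974) had 6.27, 6.11 and 6.56 in fed, 5.78, 6.34 and 5.65 in P2 and 5.81, 6.35 and 6.14 in P3 rats, and its groups overlapped in every comparison. The log2 fold change was -0.22 ± 0.21 in P3 (95% interval -0.68 to 0.25, adjusted p = 0.501) and -0.39 ± 0.21 in P2 (-0.85 to 0.08). Chrng (probe set 10924989), the fetal subunit that lies next to Chrnd in the genome, had the same deposited value of 5.02 on 6 of the 9 arrays. Its other values were 5.02 in P2 replicate 2, 5.29 in P3 replicate 1 and 4.88 in P3 replicate 2. Values repeated on 6 or more arrays occurred in 622 of the 29215 probe sets, or 2.13%. The deposited table has no detection call, so it was not known whether Chrng was above background. The P3 value of 0.04 ± 0.10 has a 95% interval of -0.18 to 0.26.

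On the 3 P2 arrays, Chrna1, Chrnd and Chrne shared an order, with replicate 2 highest and replicate 3 lowest. The mean log2 intensity over 6 fibro-adipogenic markers was 8.95, 10.19 and 9.44 in P2 replicates 1, 2 and 3. Over 6 endothelial markers it was 8.34, 9.02 and 8.70. In both lists replicate 2 was again highest, but replicate 1 was lowest. The Schwann cell mean (5.78, 5.89 and 5.68) and the fibre mean shared the order of the subunits. The macrophage mean was highest in replicate 3 (7.28) and the satellite cell mean in replicate 1 (6.27), and the adipocyte mean was lowest in replicate 2 (6.77). The part of these cell types in the subunit values was not tested. Of the 11 neuronal subunits of nicotinic receptors, none passed in any comparison with limma or with an ANOVA and Tukey's test, with 2 lower in P3 versus Fed at an unadjusted p under 0.05. Their log2 fold changes lay between -0.29 and 0.10 in P3. Their mean log2 intensity was 4.53 to 4.63 over the arrays, under the lowest array median of 5.80. It was not known whether they were above background, so the missing calls do not show unchanged expression.

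In the agrin pathway, the receptor, the kinase and the proteins downstream of it changed in different ways. Lrp4 (probe set 10837881), the agrin receptor, had log2 intensities of 6.87, 7.02 and 6.78 in fed, 6.94, 7.44 and 7.34 in P2 and 7.84, 7.33 and 7.64 in P3 rats. It rose by 0.71 ± 0.16 in P3 versus Fed (adjusted p = 0.0087), a 1.64-fold increase without overlap between the groups. The P2 value was 0.35 ± 0.16 (adjusted p = 0.244), and P3 and P2 did not differ past the test (0.36 ± 0.16, adjusted p = 0.196). With an ANOVA whose p-values were adjusted by the Benjamini-Hochberg method, the P3 call of Lrp4 was lost (adjusted p = 0.0914).

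Musk, by contrast, was lower in P2 and not in P3. Musk (probe set 10869213), the receptor kinase, had 6.59, 6.83 and 6.91 in fed, 6.10, 6.30 and 6.19 in P2 and 6.89, 6.74 and 6.85 in P3 rats. All P2 arrays lay below all arrays of the other groups, and the P3 and fed arrays overlapped. Musk fell by 0.58 ± 0.10 in P2 (adjusted p = 0.00784), to 67.0% of the fed level. The level was higher in P3 than in P2 by 0.63 ± 0.10 (adjusted p = 0.00231), and the P3 versus Fed value of 0.05 ± 0.10 had a 95% interval of -0.17 to 0.28. It was the 1 gene of the 10 that was higher in P3 than in P2 by the test.

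Dok7 and Rapsn kept to the other order, with the change in P3. Dok7 (probe set 10777521), the activator of MuSK inside the fibre, had 7.20, 7.29 and 7.26 in fed, 7.42, 7.28 and 7.23 in P2 and 5.39, 6.03 and 6.10 in P3 rats. The P2 and fed arrays overlapped, and every P3 array was lower by more than 1 log2 unit. The P3 mean of 5.84 was near the array medians, and it was not known whether Dok7 was above background in P3. The log2 fold change of Dok7 in P3 was -1.41 ± 0.17 versus Fed (adjusted p = 0.00021), to 37.7% of the fed level, and -1.47 ± 0.17 versus P2 (adjusted p = 4e-04), and its P2 versus Fed value was 0.07 ± 0.17 (95% interval -0.31 to 0.44). Rapsn (probe set 10837769), the anchor of receptor clusters, had 7.49, 7.49 and 7.35 in fed, 7.38, 7.04 and 7.09 in P2 and 6.11, 6.60 and 6.28 in P3 rats. It fell by 1.12 ± 0.14 in P3 versus Fed (adjusted p = 0.000245), to 46.1% of the fed level, and the step between the phases was -0.84 ± 0.14 (adjusted p = 0.00274). The P2 value of Rapsn was -0.27 ± 0.14 (adjusted p = 0.283).

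Ache showed the largest change of the 10 genes in both phases. Ache (probe set 10940578), the enzyme that ends transmission, had log2 intensities of 9.19, 8.97 and 9.15 in fed, 8.47, 8.22 and 8.23 in P2 and 6.02, 6.12 and 5.93 in P3 rats. The groups did not overlap in any comparison. Versus Fed, the log2 fold change was -0.80 ± 0.10 in P2 (adjusted p = 0.0016), or 57.5% of the fed level, and -3.08 ± 0.10 in P3 (adjusted p = 2e-07), or 11.8% of it, which is 8.45-fold lower. In P3 versus P2 it was -2.28 ± 0.10 (adjusted p = 3.69e-06). The P3 mean of Ache, 6.02, was near the array medians of 5.80 to 5.90. It was not known how far it lay above background, so 11.8% holds for the deposited values only. Colq, which codes the collagen tail that tethers the enzyme in the cleft, fell by 0.28 ± 0.08 in P3 (adjusted p = 0.0281), with a P2 value of -0.10 ± 0.08. Bche, the related butyrylcholinesterase, fell by 0.58 ± 0.15 in P3 (adjusted p = 0.0155). With means of 4.08 in P3 and 4.66 in fed rats, Bche was below the filter on dim probe sets (a mean of 5), and it was not known whether it was above background.

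**Figure D2:**
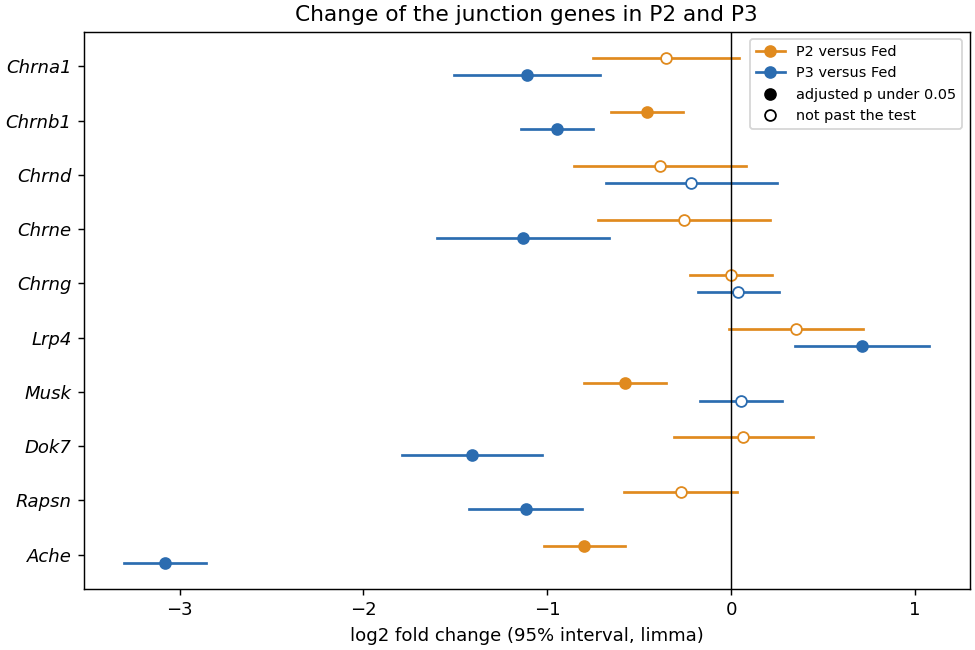
Log2 fold change (x axis) of the 10 genes (y axis) versus Fed in P2 (orange) and P3 (blue), with the 95% interval from limma and 3 rats per group; filled points have an adjusted p under 0.05. Ache lies at -3.08, Dok7 at -1.41 and Lrp4 at 0.71 in P3, and Musk at -0.58 in P2.

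Further genes of the junction were examined as a group. A list of 36 further genes was drawn up, with ligands, adaptors, membrane and basal lamina proteins, transcription factors and glycosylation enzymes whose loss causes congenital myasthenia in humans, and 30 of them were measured. In P3 versus Fed, 12 of the 30 fell and 3 rose, with a median of -0.22. Of all genes, 17.1% were called lower and 18.2% higher. An ANOVA with Tukey's test called 8 lower in place of 12, and 3 higher. Of all 14506 genes, it called 1733 lower and 1995 higher. In P2, 4 fell and 1 rose (Rac1), beside 5.57% of all genes called lower and 7.07% called higher. This count of 5 was 2 without Fed replicate 2 and 3 without Fed replicate 1, Fed replicate 3 or P2 replicate 2.

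Sntb1, a syntrophin of the membrane scaffold, had log2 intensities of 9.36, 9.74 and 9.20 in fed, 7.87, 7.70 and 7.76 in P2 and 6.42, 5.97 and 5.96 in P3 rats. It fell by 1.66 ± 0.16 in P2 versus Fed (adjusted p = 0.000543). In P3 the log2 fold change was -3.32 ± 0.16 (adjusted p = 1.35e-06), with no overlap between the 3 groups. Its decrease in P3 was the largest of the list. The glycosylation genes Alg2 (-1.43 ± 0.11), Alg14 (-0.59 ± 0.09) and Gfpt1 (-0.50 ± 0.09) fell in P3 and also passed as lower in P2. Prkaca, a catalytic subunit of protein kinase A, fell by 1.17 ± 0.12 in P3, and Nes, the intermediate filament nestin, fell by 0.80 ± 0.16. Besides Colq and Bche, given above, the remaining decreases in P3 were those of Crk, Plec, Scn4a and Dnaja3, from -0.59 to -0.35.

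Agrn, the ligand of LRP4, did not pass in P3 (-0.21 ± 0.10, 95% interval -0.42 to 0.01, adjusted p = 0.151) or in P2 (0.04 ± 0.10). Neither did Nrg1 or its receptors Erbb2, Erbb3 and Erbb4. Group means were 4.46 to 4.58 for Nrg1, 5.14 to 5.32 for Erbb4, 5.43 to 5.52 for Erbb3 and 5.66 to 5.67 for Erbb2. All lay under the lowest array median of 5.80, and it was not known whether these genes were above background. Gabpa, the DNA-binding subunit of GABP, had log2 intensities of 8.75, 8.67 and 8.76 in fed, 8.79, 9.02 and 9.09 in P2 and 9.69, 9.79 and 9.71 in P3 rats. It rose by 1.00 ± 0.09 in P3 (adjusted p = 3.04e-05). Of the genes with an N-box in the sequences shown above, Chrne fell in P3 and Chrnd did not pass. A link between Gabpa and these genes was not tested. Gabpb1, also on the list of further genes, was not measured. Pak1 and Rac1, which act on the cytoskeleton downstream of MuSK, rose by 0.60 ± 0.13 and 0.28 ± 0.07 in P3.

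**Figure D3:**
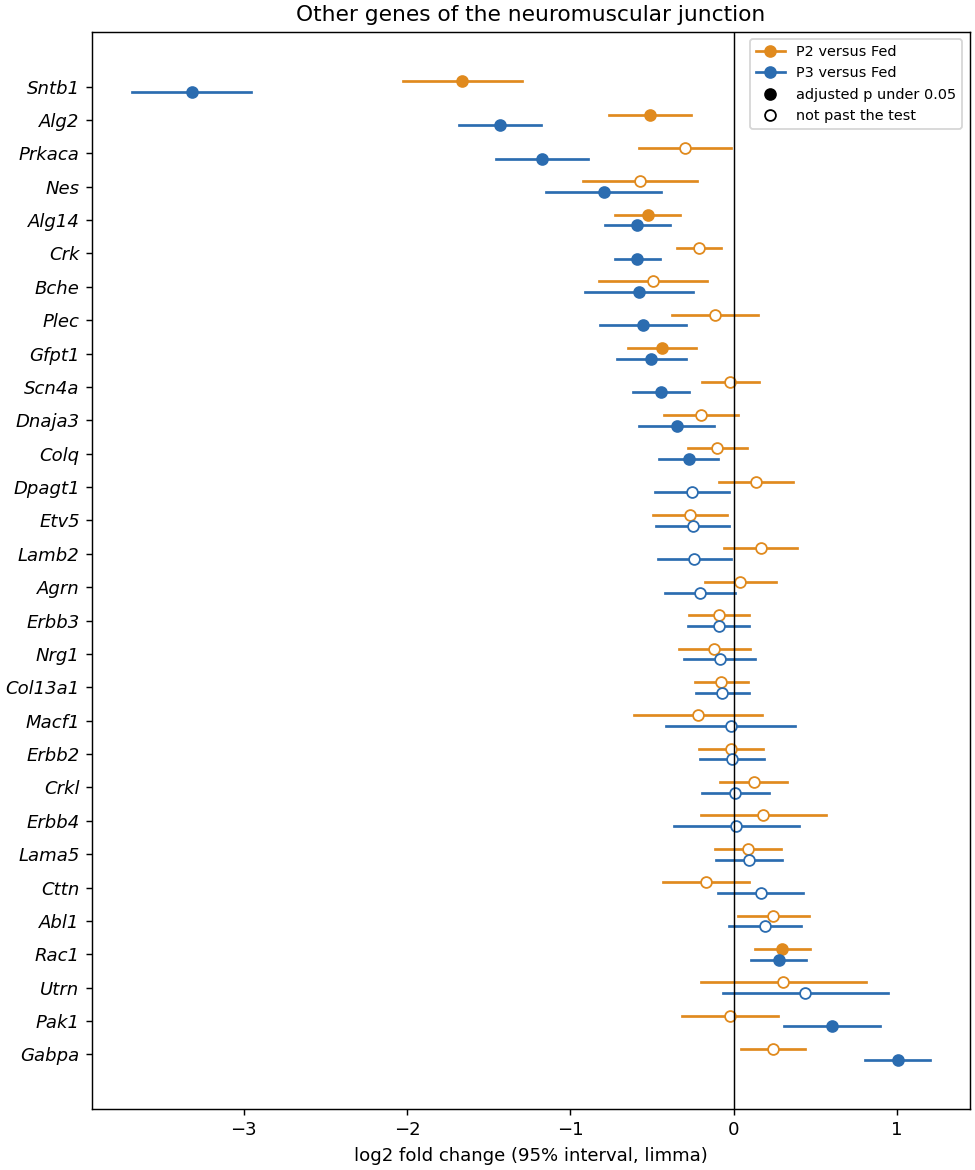
Log2 fold change (x axis) of 30 other junction genes (y axis) versus Fed in P2 (orange) and P3 (blue), sorted by the P3 value, with the 95% interval from limma and 3 rats per group; filled points have an adjusted p under 0.05. Sntb1 lies at -3.32 and Gabpa at 1.00 in P3.

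The values were then set beside the pattern known from cutting the nerve of rodent muscle. Of 19 genes known to rise after denervation, 17 were measured, and 5 of these are among the 10 junction genes (Chrna1, Chrnb1, Chrnd, Chrng and Musk). None of the 5 rose in P3 or P2 versus Fed with limma, at an unadjusted p under 0.05, or with an ANOVA and Tukey's test. In P3, 2 of the 5 fell and 3 did not pass, and the 95% intervals of the 5 ended at 0.28 or lower. In P2, 2 fell (Chrnb1 and Musk), and the intervals ended at 0.22 or lower. For Chrng this bound holds for the deposited values, most of which repeat. Ache, which falls after denervation in rodents, fell here too.

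The other 12 genes of the list were divided: in P3, 6 rose, 2 fell and 4 did not pass, where 18.2% of all genes were called higher and 17.1% lower. In P2, 4 of the 12 rose and 1 fell, beside 7.07% and 5.57% of all genes. Those that rose were Cdkn1a, a cell cycle inhibitor (3.36 ± 0.31), the ubiquitin ligases Fbxo32 (3.10 ± 0.14) and Trim63 (2.58 ± 0.13), Gadd45a (2.39 ± 0.21), the deacetylase Hdac4 (0.74 ± 0.09) and the transcription factor Runx1 (0.29 ± 0.08). Hdac4, which in denervated mouse muscle represses the genes that hold myogenin down, was higher in P2 by 0.77 ± 0.09 (adjusted p = 0.00135). The other increases in P2 were those of Fbxo32 (2.28 ± 0.14), Cdkn1a (1.78 ± 0.31) and Trim63 (1.49 ± 0.13). In both phases, Myh3, the embryonic myosin, fell. Dach2 and Hdac9, known to fall after denervation in mice, were not analysed here.

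The myogenic factors that bind E-boxes did not move together. Myod1, which codes MyoD, had log2 intensities of 8.70, 8.93 and 9.86 in fed, 9.26, 9.40 and 8.57 in P2 and 5.66, 6.31 and 6.02 in P3 rats. It fell by 3.17 ± 0.32 in P3 (adjusted p = 8.58e-05), with a P2 value of -0.09 ± 0.32. Myog, which codes myogenin, had 7.88, 8.33 and 8.65 in fed, 8.40, 9.03 and 8.31 in P2 and 8.27, 8.92 and 7.71 in P3 rats, which overlapped. Its P3 value of 0.02 ± 0.32 had a 95% interval of -0.72 to 0.75. Ncam1, the adhesion molecule that spreads along denervated fibres, had a P3 value of -0.17 ± 0.14 (adjusted p = 0.424).

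**Figure D4:**
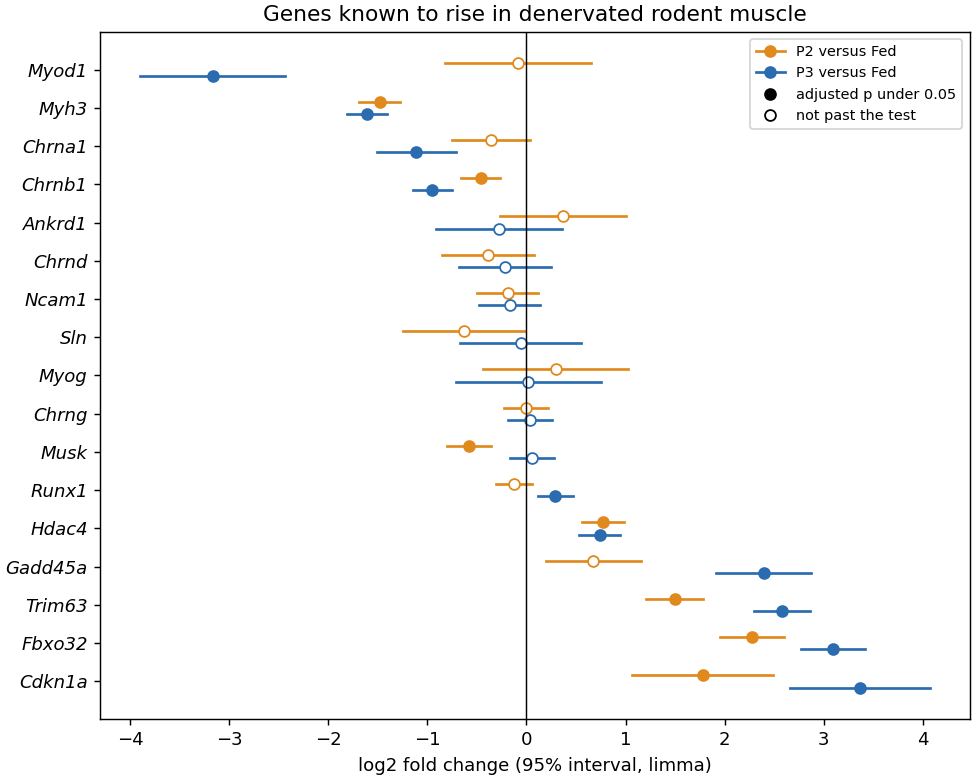
Log2 fold change (x axis) versus Fed in P2 (orange) and P3 (blue) of 17 genes known to rise in denervated rodent muscle (y axis), sorted by the P3 value, with the 95% interval from limma and 3 rats per group; filled points have an adjusted p under 0.05. Cdkn1a lies at 3.36 and Fbxo32 at 3.10, whereas Chrna1 lies at -1.11 and Chrnb1 at -0.95 in P3.

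Markers of other cells of the muscle were examined beside these values. Of 8 measured Schwann cell markers, 1 rose in P3 versus Fed by limma (Cdh19) and none fell. Of all genes, 18.2% were called higher and 17.1% lower. Cdh19 had means of 3.86 in fed and 5.10 in P3 rats, and it was not known whether it was above background in fed rats. Of the 8 markers, 1 was lower at an unadjusted p under 0.05. An ANOVA with Tukey's test called none of them higher or lower. The mean over the list was 5.71 to 5.80 in fed, 5.68 to 5.89 in P2 and 5.67 to 5.88 in P3 rats. Of 5 measured satellite cell markers, 3 fell in P3 (Chodl, Fgfr4 and Cdh15), beside 17.1% of all genes called lower. Pax7, also on this list, was not measured. Myf5 (-0.22 ± 0.07) and Calcr (-0.28 ± 0.13) did not pass with limma. An ANOVA with Tukey's test called 4 of the 5 lower. The mean was 6.13 to 6.42 in fed, 6.20 to 6.27 in P2 and 5.46 to 5.64 in P3 rats. Of 6 fibro-adipogenic markers, 4 fell in P3 by limma (Col1a1, Col3a1, Col1a2 and Lum), beside the same 17.1% of all genes. An ANOVA with Tukey's test called 3 of the 6 lower. Pdgfra, the defining marker of these cells, had a value of -0.39 ± 0.29 (adjusted p = 0.377) and Dcn one of 0.39 ± 0.15 (adjusted p = 0.0924), and neither passed. The list had a mean of 10.48 to 10.74 in fed, 8.95 to 10.19 in P2 and 7.68 to 9.02 in P3 rats. Endothelial and macrophage markers, 6 of each, had 1 higher call each in P3 (Pecam1 and Cd163), and neither call was made by an ANOVA with Tukey's test. Of 5 adipocyte markers, 3 rose in P2 (Adipoq, Cidec and Fabp4), beside 7.07% of all genes, and 1 fell in P3 (Fabp4). Of the 10 fibre markers, 2 fell in P3 (Mb and Pvalb). An ANOVA with Tukey's test called 2 adipocyte markers higher in P2, and 1 adipocyte and 3 fibre markers lower in P3. On a log2 intensity scale no marker has a true zero. The 3 satellite cell markers, the 3 collagen genes and Lum were thus lower in P3, as were 6 of the 10 junction genes. Pdgfra, Dcn, Myf5 and Calcr did not pass with limma, and the part of satellite and fibro-adipogenic cells was not tested.

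The genes whose values most resembled those of the junction genes over the 9 arrays were taken from 8498 others with a group mean of at least 6. Since r over 9 arrays in 3 groups mostly follows the group means, it is a description. Ache was most like Rab10 (r = 0.997) and Rxrg (r = 0.997), with P3 log2 fold changes of -0.72 for Rab10, a small GTPase, and -2.67 for Rxrg, a retinoid receptor. Dok7 was most like Scn4b, a sodium channel subunit (r = 0.990), and Rbm24, an RNA-binding protein of muscle (r = 0.985). For Rapsn these were Abhd14a (r = 0.994) and Ubac1 (r = 0.992). Chrne was most like Chrna1 (r = 0.973), another subunit of the same receptor, and then Abi2 (r = 0.970).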

How the data were processed

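RNA from TIB of 9 male rats, 3 fed, 3 in P2 and 3 in P3, was hybridized to Affymetrix arrays (Rat Gene 1.0 ST). The authors made the deposited log2 intensity values with GCOS and Affymetrix Expression Console 1.1, through sketch quantile normalization and the median polish of RMA. These values are relative between arrays and were used as they are. The background correction and scan batches could not be varied. The platform annotation gives 1 symbol to 15310 of the 29215 probe sets, and of several for a gene the brightest over all arrays was kept. A linear model with 1 mean per group was fitted in limma 3.58.1 (lmFit and eBayes, R 4.3.3) on all 9 arrays without a filter, with Benjamini-Hochberg adjustment across the whole table. The fit was tested on simulated data. The number of arrays limits the precision. Promoters were searched in the RefSeq table (GRCr8) on both strands. Alternatives were the normalization, a filter on dim probe sets, the mean of probe sets, the moderation, the samples in the fit, a replicate block, the ANOVA and Tukey test of the study's methods, and each array left out in turn. The 10 genes and all lists were chosen with earlier results of these data known. All 10 genes are named; from other lists, genes were named from those called, with values for those of largest P3 change and for a few key regulators, and likeness is given for the 4 genes with the largest P3 change. Figures were drawn with matplotlib 3.10.9.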

Additional observations from a re-analysis of the deposited data

Results flagged for a closer look

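The change versus Fed differed between P2 and P3, by the direct comparison of the phases with limma, for 7 of the 10 genes. The same comparison called 10.4% of all genes lower and 11.4% higher. The P3 versus P2 log2 fold change was -2.28 for Ache, -1.47 for Dok7, -0.87 for Chrne, -0.84 for Rapsn, -0.75 for Chrna1 and -0.49 for Chrnb1. For Musk it was 0.63, the 1 positive value among them. The limma calls of Chrne and Chrna1 were lost without P3 replicate 3 (adjusted p = 0.0532 and 0.0709). With the ANOVA and Tukey test at p under 0.001, 2 of the 7 calls were kept (Ache and Dok7). Groups of 3 arrays are too small for a test of single arrays that stand apart.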

How the results depend on the processing

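Of the values of single genes under the alternatives, 524 stayed on the same side of the threshold, 16 lost their call and none with a call reversed. With the ANOVA and Tukey test of the study's methods at p under 0.001, 4 of the 10 junction genes were called in P3 versus Fed in place of 7, 1 in P2 versus Fed in place of 3, and 2 in P3 versus P2 in place of 7. Leaving out 1 array gave 7 genes in every case for P3 versus Fed, 3 for P2 versus Fed and 5 to 7 for P3 versus P2. For the other junction genes it gave 12 to 16, 2 to 7 and 7 to 10, and for the denervation list 9 to 10, 7 and 8 to 9. Deviations from the group means correlated at -0.24 to 0.12 for arrays with the same replicate number and at -0.16 to 0.31 for other numbers. With 3 arrays per group, these ranges cannot decide whether the numbers pair the arrays, and the main fit used no pairing. With only the groups compared in the fit, P3 versus P2 gave 6 junction genes, without Chrna1. With the replicate block the junction genes called were again 7, 3 and 7. Only 3 arrays per group and the lack of detection calls limit what can be said of dim genes such as Chrng.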
